A study of Homo sapiens with 12 samples.

Results

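The 7 epithelial keratin genes KRT7, KRT8, KRT18, KRT19, KRT20, KRT23 and KRT80 were followed by RNA-seq in human colorectal carcinoma cell lines. They were taken as the rows of the deposited expression table whose Ensembl identifiers carry these symbols: 7 of 63036 rows, all of them among the 15584 rows that reached 1 TPM (transcripts per 1000000) in at least 3 of the 12 libraries and were tested. The groups were HCT15 cells overexpressing RNF26, HCT15 control cells, HCT116 cells overexpressing RNF26 and HCT116 control cells, with 3 libraries each. RNF26 is a RING-type ubiquitin ligase of the endoplasmic reticulum membrane. The labels do not say how RNF26 was overexpressed, what the control cells carry, or whether a line was 1 clone or a pool, and nothing in them says that replicates were separate cultures, so a p-value here speaks only of the scatter among these libraries, technical or not.

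Keratins are the intermediate filament proteins of epithelial cells. A type II keratin pairs with a type I keratin to form the filament, and in simple epithelia such as the colon lining KRT8 is the type II partner of KRT18, KRT19 and KRT20. In the normal colon KRT20 marks the differentiated surface cells, while KRT7 is usually low. The type II genes lie in one chromosomal cluster and the type I genes in another, except KRT18, a type I gene that sits beside KRT8 at the end of the type II cluster.

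The shared family origin can be read at the end of the central rod, where keratins carry the conserved helix termination motif. The 30 coding bases of that motif are shown to compare the genes, from the principal GENCODE 29 transcripts (GRCh38) of genes on chromosome 12 (KRT8, KRT7, KRT80 and KRT18) and chromosome 17 (KRT19, KRT20 and KRT23). Capitals mark bases that differ from KRT8.
KRT8: acctacaggaagctgctggagggcgaggag
KRT7: acctacCgCaagctgctggagggcgaggag
KRT80: acctacaggaagctgGtggagggcgaggag
KRT18: acctacCgCCGCctgctggaAgATgGCgag
KRT19: acctacCgCaGCctgctCgagggACaggaA
KRT20: acTtacCgCCGCctTctggaAggAgaAgaC
KRT23: acGtacCgACGgctCctggagggAgagAGT
The type II genes KRT7 and KRT80 differed from KRT8 at 2 and 1 of the 30 bases. The type I genes differed at 8 (KRT19), 10 (KRT18), 10 (KRT23) and 11 (KRT20) bases. Over the whole aligned coding sequence the closest pair was KRT7 and KRT8, with 75.6% identical bases, and the most distant was KRT7 and KRT20, with 58.3%.

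RNF26 itself was higher in the overexpressing cells of both lines. It averaged 54.2 ± 0.562 TPM in HCT15 RNF26 cells and 27.0 ± 0.762 TPM in HCT15 controls, and 296 ± 39.4 TPM in HCT116 RNF26 cells and 16.8 ± 1.44 TPM in HCT116 controls (SD, n = 3 each). The files give TPM without read counts, so the depth is unknown and no counting interval can be given. Of the colon markers, EPCAM reached 551 TPM in HCT15 RNF26 cells, 555 TPM in HCT15 controls, 215 TPM in HCT116 RNF26 cells and 198 TPM in HCT116 controls, while CDX1, LGALS4 and GPA33 stayed under 2 TPM in every library. In HCT15 controls CDH1 averaged 73.2 TPM, CDX2 29.2 TPM, VIL1 81.7 TPM and CDH17 3.23 TPM. In HCT116 controls these genes were lower, at 6.97, 5.85, 0.457 and 0.113 TPM. Summed markers of other cells were low, at most 2.8 TPM for 6 mesenchyme genes (DCN and LUM at 0 throughout) and 0.27 TPM for 3 endothelium genes. The 4 leukocyte genes summed to 6.17 to 14.6 TPM, nearly all from CD68, with CD3E at 0, and the 11 genes of stratified epithelium to 4.41 to 9.08 TPM, mostly from KRT10, with KRT1 at 0. The HCT15 control replicate 3 stood apart from replicates 1 and 2, with 25.9% of TPM from mitochondrial genes against 17.7% and 16.4%. The HCT15 groups also differed in ribosomal protein genes, which took 27.5%, 26.3% and 27.2% of TPM in RNF26 libraries. In HCT15 control libraries they took 21.8%, 24.3% and 17.5%, without overlap.

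KRT8, KRT18 and KRT19 made up almost all keratin mRNA in both lines. They formed 99.1% of the 7 genes' summed TPM in HCT15 RNF26 cells, 99.3% in HCT15 controls, 99.3% in HCT116 RNF26 cells and 99.4% in HCT116 controls. The 7 genes summed to 3825 ± 104 TPM in HCT15 RNF26 cells and 4571 ± 413 TPM in HCT15 controls, and to 2723 ± 208 TPM in HCT116 RNF26 cells and 2905 ± 143 TPM in HCT116 controls (SD, n = 3 each). KRT7, KRT20, KRT23 and KRT80 lay between 0 and 22.9 TPM. The low genes differed by line: KRT80 and KRT7 led among them in HCT15, and KRT23 led in HCT116, ahead of KRT7 and traces of KRT20.

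**Figure D1:**
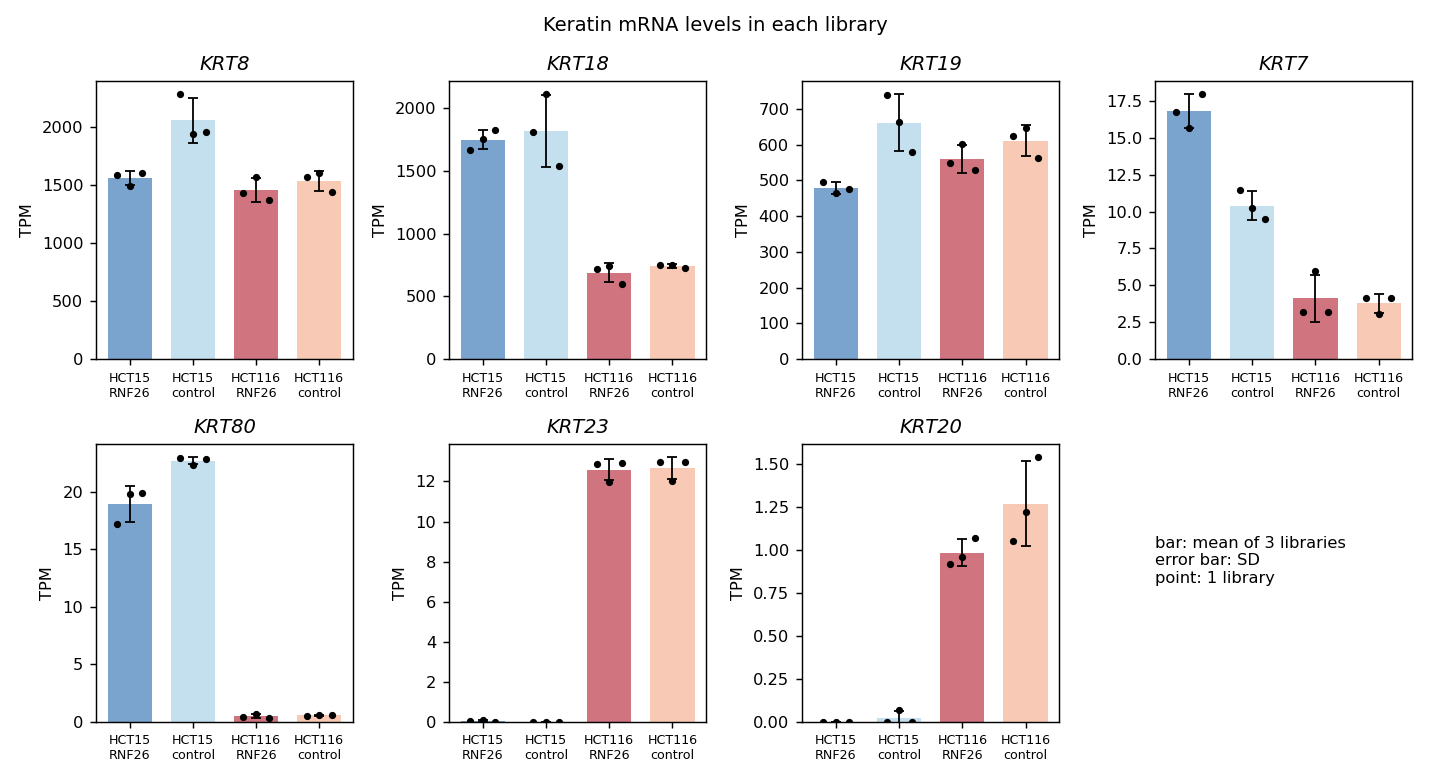
TPM of the 7 keratin genes in each library of the 4 groups, with bars for the mean of 3 libraries, error bars for the SD and points for libraries; every panel has its own scale, starting at 0. KRT8 reaches 2281 TPM and KRT18 2113 TPM in HCT15 controls, while KRT23 and KRT20 are visible only in HCT116 and KRT80 mainly in HCT15.

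The order of the levels, on the TPM scale, which is per transcript length, differed between the groups. In HCT15 RNF26 cells it ran KRT18, KRT8, KRT19, KRT80 and KRT7, with KRT80 and KRT7 overlapping. In HCT15 controls KRT8 stood above KRT18 by mean, but their libraries overlapped, and KRT19, KRT80 and KRT7 followed without overlap. KRT20 and KRT23 were at or near 0 in both HCT15 groups and could not be ordered. In both HCT116 groups the order was KRT8, KRT18, KRT19, KRT23, KRT7, KRT20 and KRT80, and the only neighbours whose libraries overlapped were KRT18 and KRT19 in the RNF26 cells.

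RNF26 overexpression in HCT15 cells went with less KRT8 and KRT19 and more KRT7, while KRT18, the most abundant keratin of the overexpressing cells, did not pass the test. Changes were tested with limma on log2(TPM + 1), and a gene was called changed at a Benjamini-Hochberg adjusted p under 0.05 over all 15584 genes. Of the 7 genes 3 were called, against a background of 36.6% of all tested genes, so the share over all 7 was close to that of genes at large. The 7 include KRT20 and KRT23, which were at or near 0 in both HCT15 groups and had little room to be called. Most called genes were lower: 4857 (31.2%) were lower and 840 (5.39%) higher, and the median over all genes was -0.17 on the log2 scale. Scaling each library by the median ratio of its genes moved that median to 0 and the split to 2600 lower and 2242 higher. In bulk RNA, fewer cells that express a keratin and less of its RNA per cell cannot be told apart.

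KRT8, the obligate type II keratin of simple epithelia, had 1588, 1487 and 1602 TPM in HCT15 RNF26 libraries, against 2281, 1937 and 1952 TPM in HCT15 control libraries. All RNF26 libraries lay below all controls. The log2 fold change was -0.40 ± 0.0835 (SE; limma, adjusted p = 0.00371), and mean TPM fell by 24.2%. After median-ratio scaling the difference was -0.18 (adjusted p = 0.134), and when GC content and transcript length were corrected for it was -0.03 (adjusted p = 0.747), so the call did not hold under either. That correction takes a gene's median GC content and length over all its annotated transcripts, short ones included. For KRT8 the length used is 918 bases, against 2126 in its principal transcript. For KRT19 it is 654 bases against 1390, and for KRT7 541 against 1754.

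KRT19, a small type I keratin with almost no tail domain, had 496, 464 and 476 TPM in HCT15 RNF26 libraries, against 739, 664 and 579 TPM in HCT15 control libraries. The groups did not overlap. Its log2 fold change was -0.46 ± 0.0918 (SE; limma, adjusted p = 0.00281). Like that of KRT8, the call was lost after median-ratio scaling (-0.24, adjusted p = 0.0627) and with GC and length corrected for (-0.13, adjusted p = 0.219). Without HCT15 control replicate 3, both genes were still called by limma, KRT8 at -0.43 (adjusted p = 0.00345) and KRT19 at -0.55 (adjusted p = 7.45e-04).

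KRT7, a type II keratin of ducts and other glandular epithelia, moved the other way. It had 16.8, 15.7 and 17.9 TPM in HCT15 RNF26 libraries, against 11.4, 10.2 and 9.5 TPM in HCT15 control libraries. No RNF26 library came down to the control range, and mean TPM was 61.6% higher. The log2 fold change was 0.64 ± 0.183 (SE; limma, adjusted p = 0.0173), read against 5.39% of all genes called higher. It rose by more under median-ratio scaling (0.85, adjusted p = 0.00468) and the GC and length correction (0.91, adjusted p = 0.00292). The limit of that correction given for KRT8 holds here too, since the length used for KRT7 is 541 bases, against 1754 in its principal transcript. Without HCT15 control replicate 3 the adjusted p was 0.0540, and without HCT15 RNF26 replicate 3 it was 0.0566.

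KRT18, the type I partner of KRT8, had 1672, 1756 and 1826 TPM in HCT15 RNF26 libraries, against 1814, 2113 and 1536 TPM in HCT15 control libraries. The groups overlapped, with the controls spread wider. The log2 fold change was -0.05 ± 0.112 (SE; limma, adjusted p = 0.805), and its sign turned after median-ratio scaling (0.18, adjusted p = 0.212) and with GC and length corrected for (0.28, adjusted p = 0.0425), which called it higher.

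KRT80, a type II keratin found in many epithelia, had 17.2, 19.8 and 19.9 TPM in HCT15 RNF26 libraries, against 22.9, 22.4 and 22.8 TPM in HCT15 control libraries. The groups did not overlap, but the log2 fold change of -0.25 ± 0.0990 (SE) missed the threshold (limma, adjusted p = 0.0690). It passed with a pseudocount of 5 TPM (-0.21, adjusted p = 0.0131), shrank to -0.04 under median-ratio scaling (adjusted p = 0.775) and to -0.0014 under quantile normalization, and turned to 0.17 with GC and length corrected for (adjusted p = 0.103). KRT20 was listed at 0 in all HCT15 RNF26 libraries and at 0, 0.07 and 0 TPM in controls. KRT23 was listed at 0.04, 0.08 and 0 TPM in HCT15 RNF26 libraries and at 0 in all controls.

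Counted without a model, 4 of the 7 genes (KRT7, KRT8, KRT19 and KRT80) had HCT15 groups that did not overlap, against 43.1% of all tested genes. For each of the 4, an exact two-sided permutation test of mean TPM gave p = 0.1, the smallest that 3 libraries against 3 allow.

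In HCT116 cells no keratin gene was called changed with RNF26 overexpression. The count was 0 of 7 by limma, with 0 at an unadjusted p under 0.05, against a background of 0.00642% of all tested genes, which is 1 gene, RNF26 itself. KRT8 had 1432, 1570 and 1371 TPM in HCT116 RNF26 libraries, against 1566, 1600 and 1437 TPM in HCT116 control libraries. KRT18 had 722, 741 and 601 TPM in RNF26 libraries, against 748, 753 and 726 TPM in controls. KRT19 had 549, 602 and 527 TPM in RNF26 libraries, against 623, 646 and 562 TPM in controls. All 3 averaged slightly lower in RNF26 cells, with log2 fold changes of -0.07 for KRT8, -0.12 for KRT18 and -0.13 for KRT19, and the groups overlapped.

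The low keratins of HCT116 also overlapped between the groups. KRT23, a type I keratin, had 12.86, 11.97 and 12.92 TPM in HCT116 RNF26 libraries, against 12.99, 12.03 and 12.99 TPM in HCT116 control libraries. KRT7 had 3.18, 5.96 and 3.21 TPM in RNF26 libraries, against 4.17, 3.02 and 4.13 TPM in controls, and replicate 2 of the RNF26 cells stood highest. KRT20 had 0.92, 0.96 and 1.07 TPM in RNF26 libraries, against 1.05, 1.22 and 1.54 TPM in controls. KRT80 had 0.39, 0.66 and 0.35 TPM in RNF26 libraries, against 0.52, 0.61 and 0.56 TPM in controls. Groups did not overlap for 0 of the 7 genes, against 12.8% of all tested genes.

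The RNF26 effects in the lines were then compared directly, as HCT15 minus HCT116. None of the 7 genes was called by limma, with 3 at an unadjusted p under 0.05, against a background of 20.5% of all tested genes called (1.8% higher and 18.7% lower). The difference was -0.32 ± 0.118 for KRT8 (SE; limma, adjusted p = 0.0777), -0.33 ± 0.130 for KRT19 (adjusted p = 0.0964) and 0.58 ± 0.258 for KRT7 (adjusted p = 0.141), all on the log2 scale. Under median-ratio scaling the difference shrank to -0.0919 for KRT8 and -0.102 for KRT19, and with GC and length corrected for it was 0.0284 for KRT8 and -0.0195 for KRT19. That of KRT7 was larger under quantile normalization (0.88, adjusted p = 0.0462) and with GC and length corrected for (0.84, adjusted p = 0.0435), and was called in both. An effect confined to HCT15 was therefore not shown for KRT8 or KRT19, and for KRT7 the call depended on the scaling. Leaving out 1 library also changed calls: KRT7 passed without HCT116 RNF26 replicate 2 (0.82, adjusted p = 0.0165), KRT8 without HCT15 control replicate 2 (-0.36, adjusted p = 0.0450) and KRT19 without HCT15 control replicate 3 (-0.42, adjusted p = 0.0215).

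**Figure D2:**
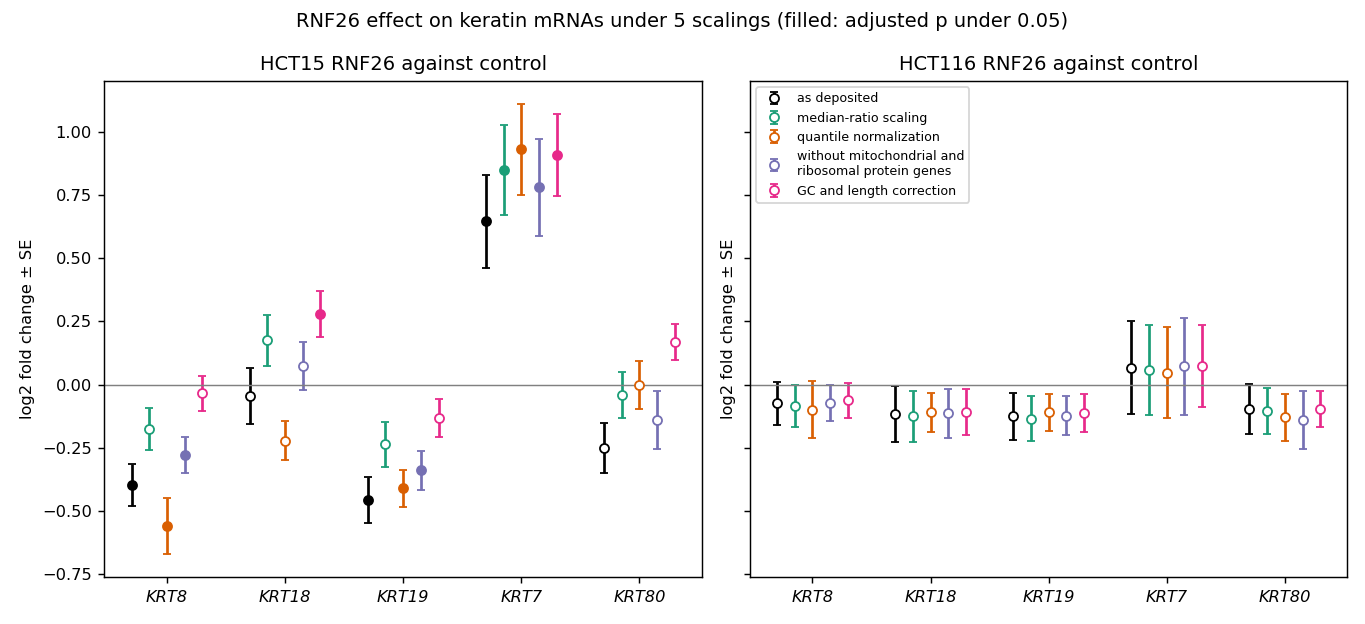
Log2 fold change of RNF26 over control cells, with its SE, for the 5 keratin genes above 1 TPM in HCT15, in HCT15 (left) and HCT116 (right); colours are 5 ways to scale the table and filled points have an adjusted p under 0.05. In HCT15 KRT7 is filled under all 5, KRT8 and KRT19 under 3 of them, and in HCT116 no point is filled.

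Ratios between keratins of the same library do not depend on a factor that scales the whole library. KRT19 over KRT18 was 0.297, 0.264 and 0.261 in HCT15 RNF26 libraries, against 0.407, 0.314 and 0.377 in HCT15 control libraries, without overlap. KRT7 over KRT8 was 0.0106, 0.0105 and 0.0112 in RNF26 libraries, against 0.00501, 0.00529 and 0.00487 in controls. That these do not overlap already follows from the levels, as KRT7 was higher and KRT8 lower in every RNF26 library than in any control. KRT8 over KRT18 was 0.950, 0.847 and 0.877 in RNF26 libraries, against 1.26, 0.917 and 1.27 in controls, and here control replicate 2 fell within the RNF26 range. KRT8 over KRT19 overlapped, at 3.26 ± 0.0951 in HCT15 RNF26 cells and 3.13 ± 0.229 in HCT15 controls (SD, n = 3 each). The share of KRT18 in the 7 genes' TPM overlapped too, at 44.1% to 46.9% in RNF26 libraries and 37.3% to 44.5% in controls. KRT19 was thus lower relative to KRT18 in every RNF26 library, while for KRT8 the groups were not separate.

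In HCT116 the same ratios overlapped between the groups, except KRT8 over KRT19. KRT8 over KRT18 was 2.13 ± 0.149 in HCT116 RNF26 cells and 2.07 ± 0.0765 in HCT116 controls, and KRT19 over KRT18 was 0.817 ± 0.0591 in RNF26 cells and 0.822 ± 0.0425 in controls (SD, n = 3 each). KRT8 over KRT19 was 2.61, 2.61 and 2.60 in RNF26 libraries, against 2.51, 2.48 and 2.55 in controls. That gap was narrow, and these ratios were not tested.

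**Figure D3:**
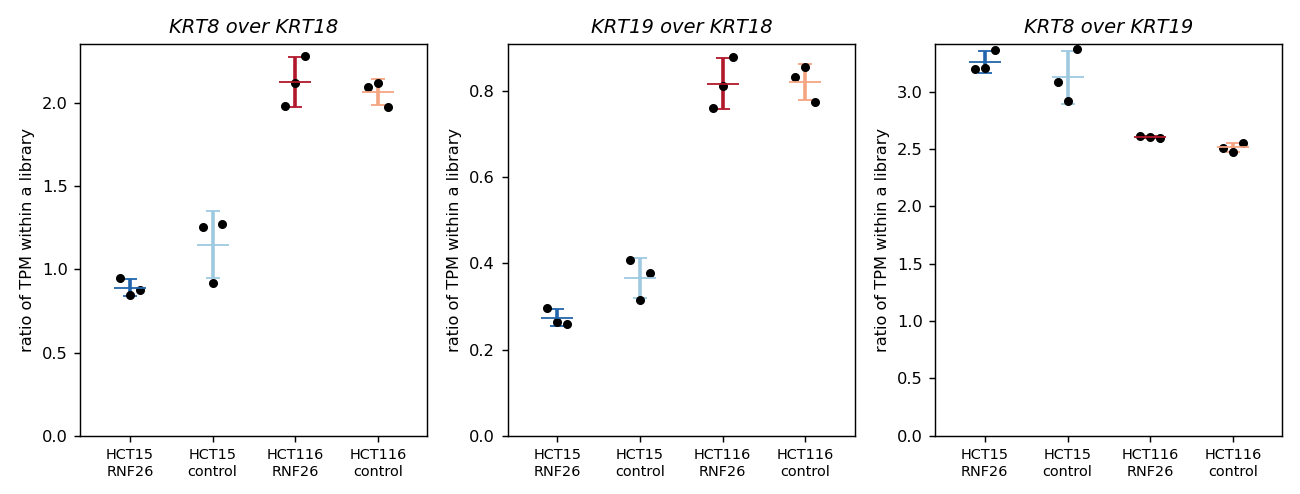
Ratios of keratin TPM within each library for the 4 groups, with points for libraries, a horizontal mark for the mean of 3 and error bars for the SD; axes start at 0. KRT8 over KRT18 lies between 0.847 and 1.27 in HCT15 and between 1.98 and 2.28 in HCT116, and KRT19 over KRT18 is lower in HCT15 RNF26 cells than in HCT15 controls.

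The lines themselves differed in which keratins they expressed. Between the control cells of HCT15 and HCT116, 6 of 7 genes were called by limma, 4 higher and 2 lower in HCT15, against a background of 69.5% of all tested genes (43.6% higher and 26% lower), and the same 6 did not overlap, against 71.9%. KRT20, KRT23 and KRT80 passed the filter on low values only through the line in which they are present, so their calls follow from the filter and are given as levels. The median over all genes was 0.22 on the log2 scale.

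KRT80 averaged 22.7 ± 0.312 TPM in HCT15 controls and 0.563 ± 0.0451 TPM in HCT116 controls (SD, n = 3 each), which is 40.3-fold higher in HCT15. KRT18 averaged 1821 ± 288 TPM in HCT15 controls and 742 ± 14.5 TPM in HCT116 controls, a log2 fold change of 1.28 ± 0.112 (SE; limma, adjusted p = 1.17e-06). KRT7 averaged 10.4 ± 0.974 TPM in HCT15 controls and 3.77 ± 0.653 TPM in HCT116 controls, a log2 fold change of 1.26 ± 0.183 (SE; limma, adjusted p = 7.69e-05). These 3 genes were all higher in HCT15, and none of their libraries overlapped.

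KRT8 was also higher in HCT15 controls, at 2057 ± 194 TPM against 1534 ± 86.1 TPM in HCT116 controls, by 0.42 ± 0.0835 on the log2 scale (SE; limma, adjusted p = 8.34e-04). The GC and length correction took that call away (0.14, adjusted p = 0.102). KRT19 overlapped, at 661 ± 80.0 TPM in HCT15 controls and 610 ± 43.1 TPM in HCT116 controls (log2 fold change 0.11 ± 0.0918; limma, adjusted p = 0.309). Its sign turned under median-ratio scaling (-0.07), and it passed after quantile normalization (0.22, adjusted p = 0.0180) and without HCT15 control replicate 3 (0.20, adjusted p = 0.0428). KRT23 was listed at 0 in every HCT15 control library and averaged 12.7 ± 0.554 TPM in HCT116 controls, and KRT20 reached at most 0.07 TPM in HCT15 controls and averaged 1.27 ± 0.249 TPM in HCT116 controls.

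The cluster neighbourhood of these genes was mostly silent. The type II cluster (chr12:52168996-52952901, GENCODE 29 on GRCh38) holds 27 keratin genes over 784 kb, of which 21 stayed under 1 TPM in every library. It begins with KRT80 (minus strand) and KRT7 (plus strand), 40520 bases apart and both higher in HCT15 controls than in HCT116 controls, and ends with KRT8 and KRT18. The type I cluster (chr17:40654665-41624842) holds 28 keratin genes over 970 kb, of which 19 stayed under 1 TPM. KRT20 and KRT23 are neighbouring genes there, 37469 bases apart, and both were at or near 0 in HCT15. KRT19 lies 1088 bases from KRT15, a type I keratin best known from basal epithelial cells, which had 8.02 ± 1.14 TPM in HCT15 RNF26 cells and 7.44 ± 1.56 TPM in HCT15 controls (SD, n = 3 each), overlapping where KRT19 did not.

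**Figure D4:**
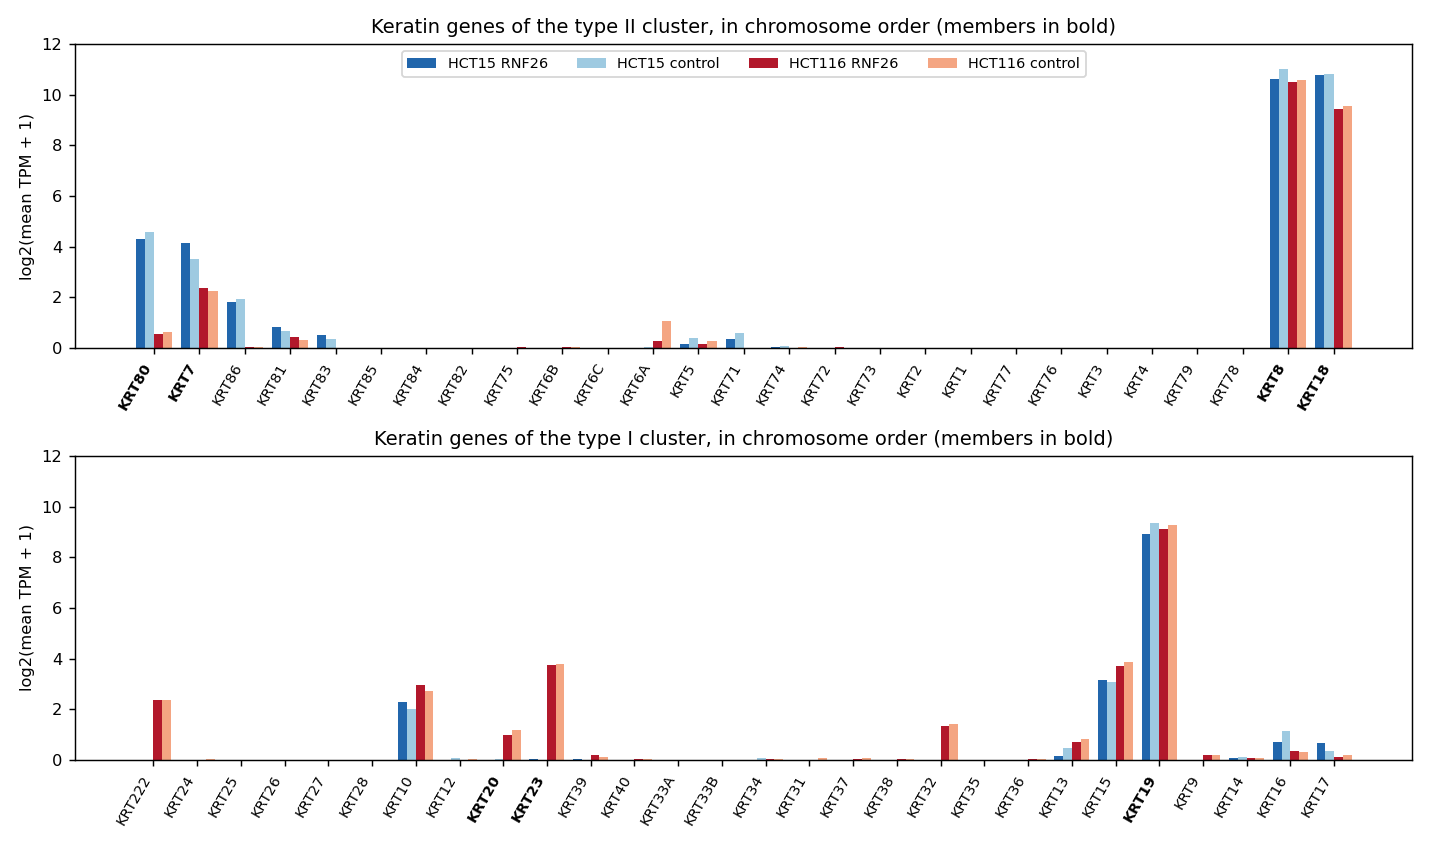
Mean TPM of 3 libraries, as log2(mean TPM + 1), of each keratin gene in chromosome order for the type II cluster (top) and the type I cluster (bottom), with 1 bar per group and the 7 genes of interest in bold. KRT8, KRT18 and KRT19 stand above all other keratins in each group, KRT80 and KRT7 are raised in HCT15, and KRT222, KRT23 and KRT32 appear in HCT116 only.

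Outside the 7 genes, 48 other keratin genes were listed and 6 were tested. They were KRT10, KRT15, KRT16, KRT32, KRT86 and KRT222, and the 7 genes held at least 98.9% of all keratin TPM in each library. KRT16, a stress keratin of stratified epithelia, passed the filter only through the HCT15 controls and is given as levels: 0.61, 0.62 and 0.63 TPM in HCT15 RNF26 libraries, against 1.01, 1.45 and 1.12 TPM in HCT15 controls. With RNF26 in HCT15, 0 of the other 5 were called by limma, with 0 at an unadjusted p under 0.05. Of all 6, 1 was called higher under median-ratio scaling, 1 under quantile normalization and 3 with GC and length corrected for. With RNF26 in HCT116, 0 of the 6 were called, with 0 at an unadjusted p under 0.05 by limma. Between the control cells of the lines, KRT10 and KRT15 were called lower in HCT15. KRT86 passed the filter only through HCT15, with 2.85 ± 1.15 TPM in HCT15 controls and 0.0433 ± 0.0208 TPM in HCT116 controls (SD, n = 3 each). KRT32 and KRT222 were listed at 0 in all HCT15 libraries while averaging 1.71 and 4.11 TPM in HCT116 controls.

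Keratin mRNAs have many processed copies in the genome, which bears on how their reads are assigned. The table lists 51 pseudogenes of KRT8, 67 of KRT18 and 5 of KRT19, and their summed TPM was 0.204% to 0.405% of KRT8, 0.145% to 0.374% of KRT18 and at most 0.042% of KRT19. The KRT18 copy with the highest level was KRT18P65 (chr6:112361437-112362722, minus strand), 92.0% identical to the KRT18 coding sequence over 1286 aligned bases. It averaged 3.10 ± 0.392 TPM in HCT15 RNF26 cells and 3.99 ± 0.416 TPM in HCT15 controls (SD, n = 3 each) and was listed at 0 in every HCT116 library. KRT8P33 (chr5:123400922-123402344, minus strand), 95.8% identical to the KRT8 coding sequence over 1420 aligned bases, averaged 1.37 ± 0.191 TPM in HCT15 RNF26 cells, 2.40 ± 0.562 TPM in HCT15 controls, 2.06 ± 0.217 TPM in HCT116 RNF26 cells and 1.79 ± 0.0611 TPM in HCT116 controls.

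The copies also share long identical runs with their parent genes. Within the parent's coding sequence, the longest run without a difference was 77 bases for KRT18P65 and 133 bases for KRT8P33. Untranslated regions were not aligned. Levels of the pseudogenes are uncertain for that reason. Adding all pseudogene rows to their parent genes changed no call among the 7 keratins in the 4 comparisons. Rows of at most 0.405% of a parent could hardly do so, and reads given to the wrong copy were not examined.

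The annotated KRT8 and KRT18 genes also overlap each other head to head. KRT8 (chr12:52897187-52949954, minus strand) and KRT18 (chr12:52948871-52952901, plus strand) share 1084 bases, 525 of them exonic on both strands, and the principal transcripts share 135 exonic bases. KRT7 (chr12:52232520-52252186, plus strand) overlaps the antisense gene KRT7-AS by 282 exonic bases, and KRT7-AS had 0.743 ± 0.167 TPM in HCT15 RNF26 cells and 0.833 ± 0.0306 TPM in HCT15 controls. The library kit keeps the strand, per the labels, but no source used here says whether counting used it.

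Genes whose proteins bind or anchor keratin filaments were lower with RNF26 in HCT15. Of 19 such genes 17 were tested, and 14 fell and 0 rose by limma, against 31.2% of all tested genes that fell. Their median was -0.77 on the log2 scale, against -0.17 over all genes. The count that fell was 11 under median-ratio scaling (median -0.55, against 0 over all genes), 11 with GC and length corrected for (median -0.40, against -0.01), and 12 without HCT15 control replicate 3. HSPB1, a small heat shock protein that associates with keratin filaments, averaged 305 ± 51.0 TPM in HCT15 RNF26 cells and 1002 ± 134 TPM in HCT15 controls (SD, n = 3 each), a log2 fold change of -1.72 ± 0.126 (SE; limma, adjusted p = 2.55e-05). JUP, the desmosome and adherens junction protein plakoglobin, fell by 1.25 (adjusted p = 6.01e-05), PLEC, the cytolinker plectin, by 1.17 (adjusted p = 7.76e-05) and PKP2, the desmosomal plakophilin, by 0.77 (adjusted p = 4.56e-05), all by limma.

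The same genes differed little with RNF26 in HCT116, where 0 of 17 were called by limma and 1 had an unadjusted p under 0.05. The difference between the lines' RNF26 effects was called by limma for 11 of the 17, all lower in HCT15, against 18.7% of all genes. Among them were HSPB1 (-1.79, adjusted p = 8.54e-04) and PLEC (-1.09, adjusted p = 0.00274). The count of 11 was not recomputed under other settings. Over all genes the count for this difference went from 3190 to 2080 under median-ratio scaling and 1642 with GC and length corrected for. Between control cells, 8 of the 17 were higher in HCT15 than in HCT116 and 2 were lower, against 43.6% and 26% of all genes. The share that was higher was close to that of all genes, and the share that was lower was smaller. PKP2 averaged 73.8 ± 4.10 TPM in HCT15 controls and 9.16 ± 0.692 TPM in HCT116 controls.

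**Figure D5:**
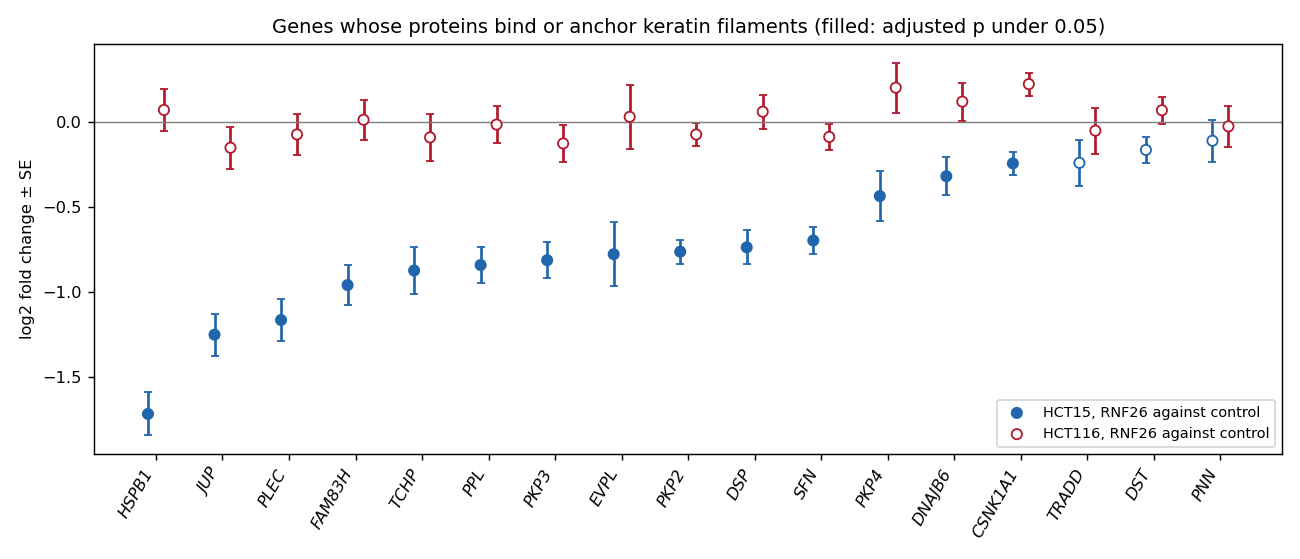
Log2 fold change of RNF26 over control cells, with its SE, for the 17 tested genes whose proteins bind or anchor keratin filaments, in HCT15 (blue) and HCT116 (red); filled points have an adjusted p under 0.05. In HCT15 14 points are filled and lie below 0, from -1.72 for HSPB1, and in HCT116 none is filled.

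Other intermediate filament genes moved in part, with counts near the shares of all genes. Of 10 tested with RNF26 in HCT15, 4 fell (the lamin genes LMNA, LMNB1 and LMNB2, and NES) and 1 rose, PRPH, which encodes peripherin, against 31.2% of all genes that fell and 5.39% that rose. NES was near the threshold (limma, adjusted p = 0.0469) and low, at 0.593 ± 0.127 TPM in RNF26 cells and 1.02 ± 0.232 TPM in controls. DES, VIM and SYNM, also among the 10, averaged under 1 TPM in both HCT15 groups. Under median-ratio scaling 3 fell. With GC and length corrected for 3 fell too, and the list's median moved to 0.09, against -0.28 as deposited. LMNB2 averaged 39.5 ± 2.11 TPM in RNF26 cells and 88.0 ± 13.8 TPM in controls (SD, n = 3 each; log2 fold change -1.12; limma, adjusted p = 6.51e-05), and PRPH averaged 5.90 ± 1.02 TPM in RNF26 cells and 3.16 ± 1.14 TPM in controls (0.76; adjusted p = 0.0120). In HCT116 0 of the 10 were called by limma, with 1 at an unadjusted p under 0.05. VIM, the intermediate filament gene of mesenchymal cells, was low in both lines, at 0.747 ± 0.442 TPM in HCT15 controls and 3.18 ± 0.469 TPM in HCT116 controls.

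Transcription factors known from epithelial and intestinal gene regulation were in part lower with RNF26 in HCT15. Of 18 tested, 11 fell and 0 rose by limma, against 31.2% and 5.39% of all genes, with a median of -0.49 against -0.17 over all genes. Under median-ratio scaling 9 fell, and with GC and length corrected for 8 fell and 1 rose, with a median of -0.17 against -0.01. The 7 that were not called include EHF (-0.13) and GRHL1 (0.10). ETS2 averaged 46.7 ± 2.48 TPM in HCT15 RNF26 cells and 96.3 ± 3.92 TPM in HCT15 controls (log2 fold change -1.03; limma, adjusted p = 2.31e-05), and KLF5, a factor of proliferating epithelium, averaged 28.1 ± 1.11 TPM in RNF26 cells and 65.6 ± 8.50 TPM in controls (-1.19; adjusted p = 4.40e-05). CDX2, the intestinal homeobox factor, averaged 10.9 ± 3.30 TPM in RNF26 cells and 29.2 ± 5.82 TPM in controls (-1.37; adjusted p = 4.79e-04), and VIL1, the brush border protein villin, fell by 1.59 (adjusted p = 6.40e-05). Of 5 tested colon markers these 2 fell, against 31.2% of all genes, and 0 rose except under median-ratio scaling, where 1 did. CDH1 (-0.55, adjusted p = 0.0534) and CDH17 (-0.30, adjusted p = 0.0644) were also lower but missed the threshold by limma. With a pseudocount of 5 TPM, 4 of the 5 fell. EPCAM differed by -0.01 on the log2 scale (limma, adjusted p = 0.912), and LGALS4, below the filter, averaged 1.39 ± 0.464 TPM in HCT15 RNF26 cells and 0.420 ± 0.139 TPM in HCT15 controls (SD, n = 3 each). In HCT116 no transcription factor or colon marker was called by limma, with 2 and 1 at an unadjusted p under 0.05.

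KRT20, low throughout, and the intestinal factor CDX2 had their higher levels in different lines. CDX2 averaged 29.2 ± 5.82 TPM in HCT15 controls and 5.85 ± 0.249 TPM in HCT116 controls (SD, n = 3 each), a log2 fold change of 2.12 (limma, adjusted p = 2.62e-06). KRT20 was at or near 0 in HCT15 and averaged only 1.27 ± 0.249 TPM in HCT116 controls. VIL1, which passed the filter only through HCT15, averaged 81.7 ± 21.1 TPM in HCT15 controls and 0.457 ± 0.0902 TPM in HCT116 controls.

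The genes whose levels ran most like those of a keratin over the 12 libraries were ranked by Pearson correlation of log2(TPM + 1), as a description, since libraries of a line share its background and the lines stand apart. For KRT19 they were RNASEH2A (r = 0.984, and 0.985 once each line's mean was removed), TBCB and PLP2. For KRT8 they were ITM2C (r = 0.975, and 0.961 within lines) and STUB1, and for KRT7 RNASEK (r = 0.977, and 0.829 within lines), KLHL5 and PQBP1. For KRT18 they were HTATIP2 (r = 0.996, and 0.896 within lines), RNF187 and TMEM42. Among the keratins themselves KRT8 and KRT19 ran closest within lines, at r = 0.966, while KRT8 and KRT18 reached 0.285. Only line means were removed, so values within lines still hold the differences between RNF26 and control cells. Of the low keratins, KRT23 ran like MAGEB2 and VCAN mostly through the gap between the lines, with r = 0.273 and 0.217 within lines. KRT20 ran like ZNF655, HBE1 and SYNE4, with r = 0.738, 0.762 and 0.568 within lines. KRT80 ran like SERP2, C9orf64 and C9orf152, with r = 0.704, 0.664 and 0.651 within lines.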

How the data were processed

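Poly(A) RNA of 12 libraries was sequenced on a stranded kit, per the labels' protocols. The authors deposited 1 table of TPM with 2 decimals, each column summing to about 1000000; the tools named in the submitters' processing notes are fastp, HISAT2, RSEM and StringTie, with GRCh38, and no source used here gives their versions, their order or the annotation release. TPM holds no depth, so no count test was run, and a change in a few abundant genes shifts all others.

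Identifiers were matched to symbols (42372 of 63036), positions and transcripts came from GENCODE 29, and groups from the sample titles. Genes of 1 TPM or more in at least 3 libraries were tested on log2(TPM + 1), a scale that understates changes of low genes, with limma 3.58.1 in R 4.3.3: 1 fit with a mean per group over 12 libraries (8 residual degrees of freedom), a trended prior, two-sided, Benjamini-Hochberg adjusted over all tested genes. Ratios and levels were described without a test. Pseudogenes were aligned with Biopython 1.88. The script was checked on simulated data.

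The keratins, gene lists and tests were chosen with earlier results of these data known. Named genes were the 7 keratins, RNF26, up to 4 genes of the smallest p per list, the tested other keratins, up to 4 pseudogenes, neighbouring keratins and the 3 most correlated genes of 5 TPM or more, of which some are not reported here. NES, VIM, EHF, GRHL1, EPCAM, LGALS4 and markers at or near 0 were named after their values were seen or to complete a count. Same-numbered libraries did not deviate together, so replicate numbers were not used as pairs.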

Additional observations from a re-analysis of the deposited data

How the results depend on the processing

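The results were recomputed under 25 other settings, and the changes of the keratins not given above, with the main ones of the gene lists, are these. With RNF26 in HCT15, KRT80 was called without HCT116 RNF26 replicate 2 (adjusted p = 0.0408 by limma), and PRPH was not called when each line was fitted alone. Keratin calls: with RNF26 in HCT15 the count was 1 under median-ratio scaling, and for the difference between lines it was 1 under quantile normalization and under the GC and length correction, and 0 to 1 when 1 library was left out. All genes: the HCT116 count was 11 with no filter, 3 in a separate fit of each line and 1 to 3 when 1 library was left out; the count for the difference between lines was 2080 under median-ratio scaling, 1932 under quantile normalization, 1642 under the GC and length correction and 1941 to 3857 when 1 library was left out. Sign turns with RNF26 in HCT15: KRT18 under median-ratio scaling (0.1755), without mitochondrial and ribosomal protein genes (0.0737), under the GC and length correction (0.280) and over libraries left out in turn (-0.161 to 0.0682), KRT20 (0.0538) and KRT80 (0.17) under the GC and length correction. In HCT116: KRT7 without control replicate 2 (-0.0524) or RNF26 replicate 2 (-0.177), in a leave-one-out range of -0.177 to 0.191, and KRT23 without control replicate 1 or 3 (0.00797) or RNF26 replicate 2 (0.0238), in a range of -0.0433 to 0.0238. For the difference between lines: KRT8 under the GC and length correction (0.0284), KRT18 under quantile normalization (-0.113) and without HCT116 RNF26 replicate 3 (-0.0236) or HCT15 control replicate 3 (-0.0454), in a leave-one-out range of -0.0454 to 0.184, KRT80 with a pseudocount of 0.1 (0.0024), under median-ratio scaling (0.0638), quantile normalization (0.128) and the GC and length correction (0.27). Between the controls: KRT19 under median-ratio scaling (-0.0716) and the GC and length correction (-0.14). The cause was not tested. In the lists, other intermediate filament genes that fell in HCT15 numbered 3 to 5 over all settings, and transcription factors 8 to 13. The GC and length correction also called KRT23 higher with RNF26 in HCT15 (0.27, adjusted p = 0.0327 by limma), where no library passes 0.08 TPM, so its values for genes near 0 carry the correction itself. Replicate numbers did not pair the libraries (correlations of same-numbered deviations from -0.0543 to 0.146): with the replicate block the keratin counts stayed at 3, 0, 0 and 6, and 5479 genes were called with RNF26 in HCT15. The depth is unknown, so values under 1 TPM have no counting error here.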
